A study of Mus musculus with 12 samples.

Results

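The core of the Mediator complex and RNA polymerase II were followed as a set of 39 genes across mouse liver in 6 groups of genotype and diet. The members were the named subunit genes *Med1*, *Med4*, *Med6* to *Med11* and *Med14* to *Med31*, 26 in all, and *Polr2a* to *Polr2m*, 13 in all. They were found by matching the Ensembl identifiers of the table of normalized counts to mouse symbols, and all 39 were among its 16346 genes. Each group held 2 libraries of whole-liver RNA from C57BL6J mice aged 12 weeks. Control mice carried the floxed *Med13*fl/fl alleles without Cre. MED13-LKO mice carried the same alleles together with *Alb*-Cre, which is active in hepatocytes. Cells of the liver without Cre activity should keep an intact gene. Both genotypes were fasted overnight for 16 h, or were refed for 4 h on normal chow, with drinking water that held 30% sucrose or 30% fructose. By the study's methods the refed mice were killed later in the day than the fasted mice, so feeding and time of day cannot be told apart. The labels number the replicates without stating that each came from a separate mouse, so the p-values measure the spread between these libraries.

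Mediator is the large assembly that carries signals from DNA-bound activators to RNA polymerase II at promoters. Its head and middle touch the polymerase, its tail meets most activators, and MED14 forms the backbone that joins them. A separable kinase module, of which MED13 is the link, docks on this core and is not counted among the members here. RNA polymerase II makes messenger RNA, and several of its small subunits also sit in RNA polymerases I and III.

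*Med13* itself was no lower in the libraries labelled MED13-LKO. Control libraries held 674 and 796 (fasted), 578 and 673 (sucrose) and 607 and 778 (fructose), counted as normalized counts, and the other genotype held 808 and 899, 646 and 717, and 681 and 1055 by diet in that order (log2 fold change averaged over diets 0.22 with a standard error of 0.115, adjusted p = 0.201 from limma). Values per gene cannot show whether the floxed part of the transcript was lost. The genotype is written as labelled, and each direction given for it rests on those labels. Library sums ran from 21060000 to 24150000 normalized counts in controls and from 17310000 to 18740000 in the libraries labelled MED13-LKO, without overlap. An estimate from the steps between low values gave from 18800000 to 21310000 and from 16020000 to 24130000 reads, with overlap. All 4 hepatocyte markers tested were lower in the libraries labelled MED13-LKO (log2 fold changes from -0.64 to -0.36, against a median of 0.01 over all genes tested), and their summed level ranged from 1614160 to 1945520 there and from 2145270 to 2772420 in controls, without overlap. Of the markers of other liver cells, 4 of 6 for sinusoidal endothelium and 1 of 6 for Kupffer cells were higher, 2 of 6 for stellate cells and 1 of 4 for cholangiocytes were lower, and neither of the 2 lymphocyte markers tested was called. Over all genes tested, 25.3% were called in this comparison, 12.1% higher and 13.2% lower, so the counts for Kupffer cells, stellate cells and cholangiocytes are near that share. The summed levels in controls and in the libraries labelled MED13-LKO ranged from 3831 to 4602 and from 4524 to 5919 for the endothelial markers, from 3528 to 4861 and from 4450 to 5836 for Kupffer cells, from 5023 to 6311 and from 4619 to 5570.2 for stellate cells, from 666 to 876 and from 534 to 849 for cholangiocytes, and from 21.5 to 46.8 and from 36.9 to 73.1 for all 6 lymphocyte markers, the only list with markers at 0 in some library. With feeding, 1 endothelial and 1 stellate marker were lower and no marker was higher, where 21.8% of all genes tested were called. In bulk tissue, fewer cells of a type and less RNA per cell cannot be told apart, and the part of these marker differences in the genotype differences below was not tested.

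All 39 members passed the minimum mean of 10 normalized counts, and their means over the 12 libraries ran from 15.3 for *Polr2f* to 1500.0 for *Polr2b*. Levels between genes were compared per kilobase of the principal transcript. On that scale the mean level spanned 33.4-fold, from 17.3 to 579 normalized counts per kilobase, with a median of 143. The 26 core Mediator members had a median of 88.2 and the 13 RNA polymerase II members a median of 337 per kilobase. *Med21*, a subunit of the middle that forms its hinge with MED7, stood first at 579 ± 77.6 (SD, n = 12) per kilobase. *Polr2m*, which encodes a protein bound to a fraction of the polymerase, had 576 ± 39.4 (SD, n = 12) and *Med22* of the head 572 ± 74.3 (SD, n = 12), so the first 3 levels did not differ beyond their spread. The order also depends on the length taken for each gene, which the SD between libraries does not cover. For *Med21* this length was 572 bases, where the median of its annotated transcripts was 699. At the other end, *Polr2f* had 17.3 ± 13.1 (SD, n = 12), *Med18* had 19.0 ± 6.22 (SD, n = 12) and *Med26* had 21.9 ± 4.10 (SD, n = 12) per kilobase, and these also lay within one another's spread.

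**Figure D1:**
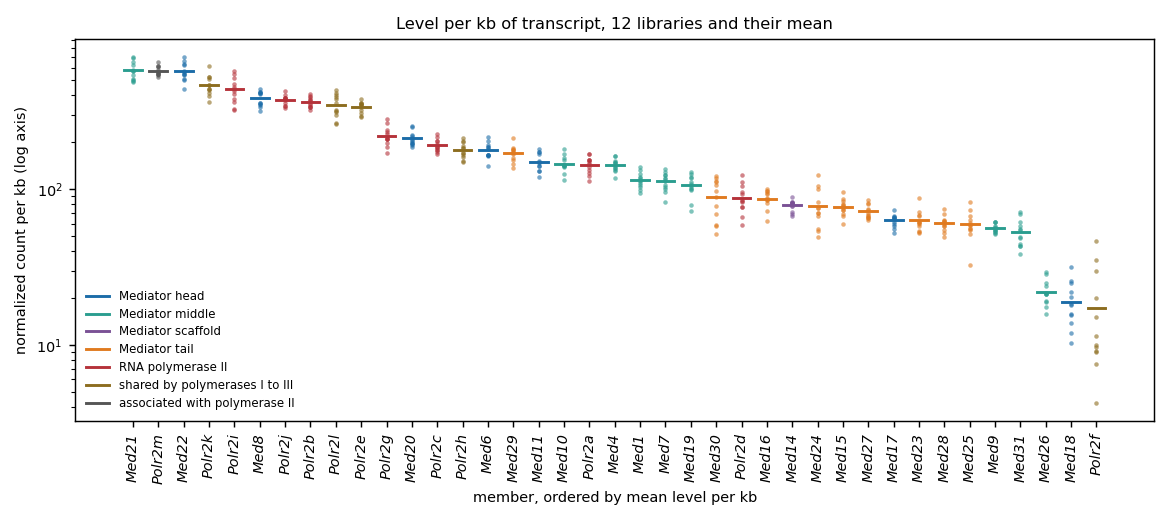
Normalized counts per kilobase of transcript on a log axis for the 39 members in order of their mean, with 12 points for the libraries and a bar for the mean, coloured by subunit group. Levels fall from 579 for *Med21* to 17.3 for *Polr2f*, and the points of *Polr2f* spread more widely than those of the other members.

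Within the subunit groups the levels of the extremes were as follows. In the head, *Med22* had normalized counts of 490.4 and 429.7 (fasted), 561 and 531 (sucrose) and 547 and 618 (fructose) in controls and 532 and 529, 608 and 496, and 649 and 684 by diet in that order in the libraries labelled MED13-LKO, while *Med18*, which pairs with MED20, had only 30.1 and 41.9 (fasted), 17.2 and 34.1 (sucrose) and 19.9 and 23.1 (fructose) and then 36.6 and 52.9, 26 and 26.5, and 42.8 and 30.6 by diet in that order. *Med18* thus stayed at or under 52.9 in every library, and its genotypes overlapped. In the middle, *Med26*, a subunit known for bringing elongation factors to the polymerase, had 85.1 and 74.7 (fasted), 57 and 47.4 (sucrose) and 64.9 and 87.8 (fructose) in controls and 71.3 and 64, 63.2 and 63.4, and 52.2 and 56.9 by diet in that order in the libraries labelled MED13-LKO. The scaffold gene *Med14* had 565 and 571 (fasted), 620.2 and 564 (sucrose) and 497 and 543 (fructose) in controls and 573 and 576, 542 and 466, and 563 and 481 by diet in that order in the libraries labelled MED13-LKO, and its 4 fasted libraries lay between 565 and 576. In the tail, the highest level per kilobase was that of *Med29*, with 204 and 216 (fasted), 229.7 and 234 (sucrose) and 271 and 227 (fructose) in controls and 185 and 175, 222 and 219, and 196 and 232 by diet in that order in the libraries labelled MED13-LKO. The lowest in the tail was that of *Med25*, which binds several activators, with 202 and 270.0 (fasted), 303 and 218 (sucrose) and 218 and 248 (fructose) and then 191 and 234, 223 and 209, and 206 and 120.2 by diet in that order. The second fructose library labelled MED13-LKO held its lowest value, 120.2, and the other 11 lay at 191 or above. Among the subunits shared by the 3 polymerases, *Polr2k* had 257 and 300.4 (fasted), 177 and 251 (sucrose) and 216 and 228 (fructose) in controls and 212 and 203, 214 and 256, and 193 and 229 by diet in that order in the libraries labelled MED13-LKO. *Polr2f*, which encodes the shared subunit RPB6, had 41.1 and 26.5 (fasted), 8.1 and 31.2 (sucrose) and 6.66 and 13.4 (fructose) in controls and 17.6 and 3.74, 7.98 and 10.1, and 8.88 and 8.63 by diet in that order in the libraries labelled MED13-LKO. *Polr2m* had 1237 and 1147 (fasted), 1200.0 and 1214 (sucrose) and 1335 and 1213 (fructose) in controls and 1435 and 1284, 1364 and 1357, and 1187 and 1247 by diet in that order in the libraries labelled MED13-LKO, all between 1147 and 1435.

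The spread of most members across all 12 libraries was small. The coefficient of variation had a median of 12.5% over the members, against 18.2% over the 12366 genes tested, and it was under 15% for 27 of the 39. It was lowest for *Med9* at 6.59% and *Polr2m* at 6.83%, and highest for *Polr2f* at 75.6%, *Med18* at 32.8%, *Med24* at 29.0% and *Med30* at 28.5%. The median over all genes tested was not restricted to genes at levels like those of the members. How much of a member's sequence other genes hold bears on these values, since kallisto divides reads among transcripts that share subsequences. For 14 members at least 10% of the 31-base subsequences also occur in another annotated gene, and for 12 members none do. The share was 90.3% for *Med10*, 30.8% for *Polr2c*, 28.0% for *Med20*, and 27.3% for both *Polr2l* and *Polr2k*. How far this alters their counts was not measured. *Polr2k* shares 23.2% with the processed pseudogene *Gm14567*, which had at most 1.11 normalized counts in control libraries and from 5.15 to 12.8 in the libraries labelled MED13-LKO. *Med7* shares 19.4% with *2310031A07Rik*, which had no values among the deposited counts. *Med19* shares 10.5% with *Zdhhc5*, which had from 1463 to 1638 normalized counts when fasted and from 1409 to 1600 when fed. *Med21* shares 18.5% in all. Its partners include the pseudogene *Gm6654* at 8.96%, which had no values, and *Tm7sf3* at 4.76%. *Med21* also shares 7.86% with the pseudogene *Rps26-ps1* and 6.0% with *Rps26*. *Rps26-ps1* had at most 7.19 normalized counts in controls and from 1137 to 1322 in the libraries labelled MED13-LKO, while *Rps26* had from 2629 to 3263 and from 50.7 to 69.9.

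Start-site sequences are shown for all 7 members called below that have a single start site in RefSeq's promoter table for GRCm38.p6. The table had 38 start sites for 32 of the 39 members, and none for *Med8*, *Med23*, *Med24*, *Med30*, *Polr2d*, *Polr2g* or *Polr2k*. Each window runs from 250 bases before to 50 after the start, 5′ to 3′ on the gene's strand, at chr7:141475104-141475403 (minus strand) for *Polr2l*, chr7:30231824-30232123 (plus strand) for *Polr2i*, chr2:84678152-84678451 (plus strand) for *Med19*, chr6:146642329-146642628 (plus strand) for *Med21*, chr2:26910593-26910892 (minus strand) for *Med22*, chr11:98192857-98193156 (minus strand) for *Med1* and chr5:77310234-77310533 (plus strand) for *Polr2b*. Capitals mark matches on either strand to CCAAT (the CCAAT box, read as ATTGG on the other strand) or, once in *Med19*, to CCGGAAG (an ETS-type site).
Polr2l: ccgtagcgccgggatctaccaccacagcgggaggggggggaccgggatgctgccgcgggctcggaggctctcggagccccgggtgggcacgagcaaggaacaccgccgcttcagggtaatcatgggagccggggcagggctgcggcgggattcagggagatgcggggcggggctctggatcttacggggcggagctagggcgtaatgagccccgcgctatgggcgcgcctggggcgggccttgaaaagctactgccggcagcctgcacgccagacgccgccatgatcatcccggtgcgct
Polr2i: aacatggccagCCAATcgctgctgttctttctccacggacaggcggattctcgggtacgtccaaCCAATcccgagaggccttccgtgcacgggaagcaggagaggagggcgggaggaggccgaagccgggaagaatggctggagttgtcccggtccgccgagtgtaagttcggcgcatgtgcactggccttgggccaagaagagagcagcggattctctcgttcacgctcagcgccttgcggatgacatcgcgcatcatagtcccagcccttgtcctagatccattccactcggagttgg
Med19: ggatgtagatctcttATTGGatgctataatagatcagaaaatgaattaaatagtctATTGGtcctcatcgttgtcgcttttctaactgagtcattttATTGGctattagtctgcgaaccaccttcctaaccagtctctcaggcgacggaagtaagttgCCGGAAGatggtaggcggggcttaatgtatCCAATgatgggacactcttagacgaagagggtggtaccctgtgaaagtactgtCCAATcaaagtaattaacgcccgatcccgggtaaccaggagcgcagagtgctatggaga
Med21: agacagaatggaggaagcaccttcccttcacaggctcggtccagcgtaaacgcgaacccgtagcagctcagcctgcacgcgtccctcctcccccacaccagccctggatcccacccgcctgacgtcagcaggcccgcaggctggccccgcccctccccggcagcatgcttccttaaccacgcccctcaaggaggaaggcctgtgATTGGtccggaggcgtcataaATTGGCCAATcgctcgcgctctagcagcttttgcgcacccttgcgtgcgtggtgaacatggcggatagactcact
Med22: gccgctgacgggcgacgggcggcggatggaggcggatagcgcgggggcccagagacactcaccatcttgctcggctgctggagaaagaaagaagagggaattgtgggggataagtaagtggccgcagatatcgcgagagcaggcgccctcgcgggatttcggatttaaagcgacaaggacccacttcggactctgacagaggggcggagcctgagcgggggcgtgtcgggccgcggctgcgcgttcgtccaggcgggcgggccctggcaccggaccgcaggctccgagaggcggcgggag
Med1: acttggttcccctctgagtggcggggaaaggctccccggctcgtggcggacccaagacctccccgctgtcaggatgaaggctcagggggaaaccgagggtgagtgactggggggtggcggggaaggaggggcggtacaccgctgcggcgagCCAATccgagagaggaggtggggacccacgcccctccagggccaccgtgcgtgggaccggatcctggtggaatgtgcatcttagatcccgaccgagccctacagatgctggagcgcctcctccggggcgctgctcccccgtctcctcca
Polr2b: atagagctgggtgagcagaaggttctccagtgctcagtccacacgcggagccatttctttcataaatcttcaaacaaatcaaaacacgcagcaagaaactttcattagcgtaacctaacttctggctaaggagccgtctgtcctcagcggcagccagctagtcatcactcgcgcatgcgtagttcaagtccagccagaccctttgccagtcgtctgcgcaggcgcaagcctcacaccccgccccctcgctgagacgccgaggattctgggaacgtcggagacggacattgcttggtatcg

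These windows differ in the letters searched for. The *Polr2l* window, 71.0% G and C, held no match to any of the 5 motifs searched, and neither did those of *Med22* and *Polr2b*. The *Med1* window held 1 CCAAT box, the *Polr2i* window held 2 CCAAT boxes, and the *Med19* window, 45.0% G and C, held 5 CCAAT boxes and the ETS-type site. The *Med21* window held 3 CCAAT boxes, of which 2 on opposite strands abut. Over all 38 member windows, CCGGAAG was found in 12 (31.6%), against 8.86% of all 32851 promoters in the table. The CCAAT box was in 15 member windows (39.5%, against 37.4% of all), the TATA box TATAAA in 5 (13.2% against 13.6%) and the E-box CACGTG in 4 (10.5% against 7.15%). The YY1 motif AAGATGGCG, present in 1.40% of all promoters, was in none of the member windows. The median G and C content was 56.8% over the member windows and 52.7% over all. These matches are descriptions of letters and not of bound factors.

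The comparison of the libraries labelled MED13-LKO with controls asks whether the core of the transcription machinery changed at the RNA level with the label. Averaged over the 3 diets, *Med30* and *Polr2d* were higher, *Polr2l* and *Med1* were lower, and the other 35 members were not called. The 4 of 39 are 10.3%, where 25.3% of all genes tested were called in this comparison, 12.1% higher and 13.2% lower. The median log2 fold change over the members was -0.04, against 0.01 over all genes, and the median of its size was 0.12 against 0.18, with median standard errors of 0.092 and 0.102. For 37 members (94.9%) the size was under 0.5, as for 84.8% of all genes. The 95% interval lay within 1 of no change for 38 members (97.4%, against 85.1% of all genes), so for these a difference of 1 on the log2 scale in either direction lay outside the interval. The exception was *Polr2f*, with a log2 fold change of -0.91 and a standard error of 0.439 (adjusted p = 0.160 from limma).

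*Med30*, a tail subunit found in metazoans and not in yeast, lies on chromosome 15 of GRCm38 from 52712408 to 52730564. Its normalized counts in control libraries were 90.1 and 78.3 (fasted), 58.3 and 69.3 (sucrose) and 59.6 and 51.7 (fructose), and those of the libraries labelled MED13-LKO were 122 and 114, 119 and 112, and 98.6 and 106 by diet in that order. All 6 of the latter lay above all 6 controls. The means were 67.9 ± 14.3 (SD, n = 6) and 112 ± 8.55 (SD, n = 6), with a log2 fold change of 0.74 (standard error 0.104, adjusted p = 0.000828 from limma). By diet the log2 fold change was 0.49 when fasted, not past the threshold (adjusted p = 0.124 from limma), 0.85 with sucrose (adjusted p = 0.0240 from limma) and 0.87 with fructose (adjusted p = 0.0185 from limma). The call with sucrose was lost in 5 of 18 refits and that with fructose in 4. No other annotated gene shares a 31-base subsequence with *Med30*.

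*Polr2l* encodes RPB10, a small zinc-binding subunit of all 3 nuclear polymerases, and lies on chromosome 7 from 141471860 to 141475132. Control libraries had 591 and 686 (fasted), 660.2 and 628 (sucrose) and 649 and 714 (fructose), and the libraries labelled MED13-LKO had 512 and 432, 533 and 524, and 436 and 494 by diet in that order. Every one of the latter was below every control. The means were 654 ± 43.3 (SD, n = 6) and 489 ± 44.2 (SD, n = 6), which is -0.42 as a log2 fold change (standard error 0.0692, adjusted p = 0.00184 from limma). The change was called with fructose alone (-0.55, adjusted p = 0.0227 from limma, lost in 4 of 18 refits), while the values when fasted (-0.43, adjusted p = 0.0514 from limma) and with sucrose (-0.28, adjusted p = 0.207 from limma) were not past the threshold. *Usp50*, with which it shares 19.8% of its subsequences, had at most 8.70 normalized counts in any library. The processed pseudogenes *Gm10774* and *Gm13015* share 8.83% and 4.07% with *Polr2l*. They had no values among the deposited counts, so their part was not measured.

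The remaining calls were smaller, and their groups overlapped. *Med1*, the subunit through which many nuclear receptors bind Mediator, lies on chromosome 11 from 98152154 to 98193293. It had 779 and 728 (fasted), 687 and 807 (sucrose) and 620.1 and 704 (fructose) in controls and 659.8 and 607, 639 and 665, and 574 and 552 by diet in that order in the libraries labelled MED13-LKO (log2 fold change -0.22, standard error 0.0621, adjusted p = 0.0248 from limma). Only the control library with 620.1 normalized counts lay below the highest values of the other genotype. *Polr2d* encodes RPB4, which forms the polymerase's stalk with the product of *Polr2g*. Its values were 59.7 and 67.4 (fasted), 83.4 and 97.2 (sucrose) and 86.1 and 77.5 (fructose) in controls and 85.8 and 78.1, 106 and 94.4, and 125 and 113 by diet in that order in the libraries labelled MED13-LKO (log2 fold change 0.35, standard error 0.104, adjusted p = 0.0334 from limma). Its stalk partner *Polr2g* had a log2 fold change of 0.14 and was not called. The calls for *Med1* and *Polr2d* each depended on single libraries. *Med1* was lost without the first fasted or second sucrose control, or without the second fasted, first sucrose or second fructose library labelled MED13-LKO, with adjusted p-values up to 0.0671. *Polr2d* was kept when the second fasted, second sucrose or first fructose control was left out and lost without each of the other 9, with adjusted p-values up to 0.0914.

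**Figure D2:**
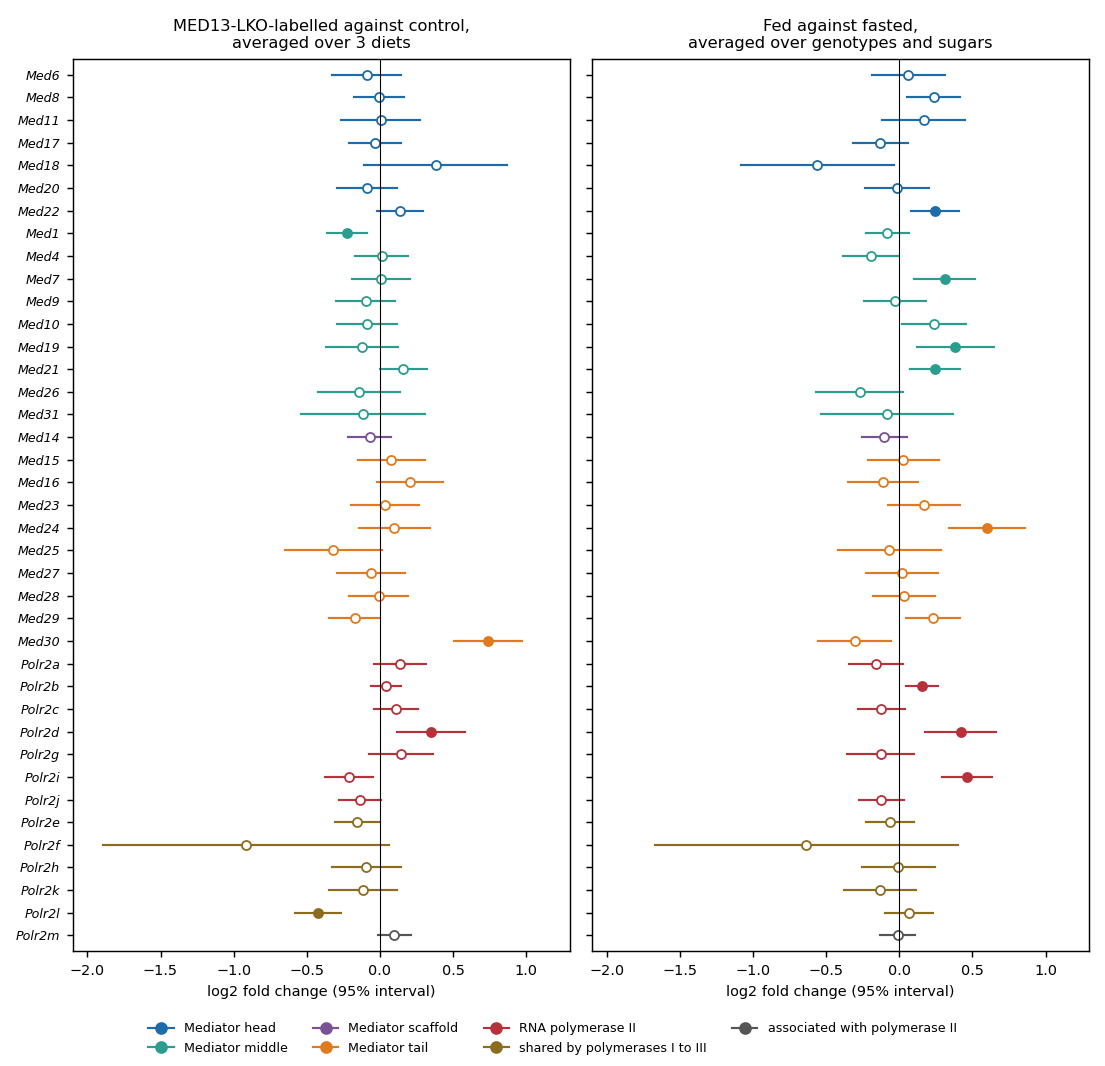
Log2 fold changes (x axes, points) with 95% intervals (lines) for the 39 members, coloured by subunit group, for the libraries labelled MED13-LKO against control and for fed against fasted. Filled points are members with an adjusted p under 0.05, 4 on the left on both sides of 0 and 8 on the right, all above 0.

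By subunit group, the head had 0 of 7 members called, the middle 1 of 9, the scaffold 0 of 1 and the tail 1 of 9, and log2 fold changes in the head ran from -0.09 to 0.38. Of the 7 subunits particular to RNA polymerase II 1 was called and of the 5 shared subunits 1, and all 5 shared subunits had log2 fold changes below 0. *Polr2a*, which encodes the largest subunit with the repeated tail that is phosphorylated during transcription, was not called (0.14, adjusted p = 0.237 from limma), and neither was *Polr2b*, which encodes the second largest (0.04, adjusted p = 0.539 from limma). Within single diets, 0 members were called when fasted, 1 with sucrose and 2 with fructose, against 8.98%, 6.03% and 7.69% of all genes. When fasted, 5 members had an unadjusted p under 0.05, where 25.4% of all genes did. *Med30* and *Polr2l* were the only 2 members whose 6 libraries of each genotype did not overlap, against 8.85% of all genes.

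The comparison of fed with fasted liver asks whether the same genes followed nutritional state. Averaged over genotypes and both sugars, 8 members were called higher and none was called lower. They were *Polr2i*, *Polr2d* and *Polr2b* of the polymerase, *Med22* of the head, *Med7*, *Med19* and *Med21* of the middle, and *Med24* of the tail. The 8 of 39 are 20.5%, close to the 21.8% of all genes called in this comparison, of which 10.7% were higher and 11% lower. Of the 39 log2 fold changes 18 were above 0, 14 of 26 in core Mediator and 4 of 13 in RNA polymerase II, and their median was -0.01, against -0.01 over all genes. The largest increase was 1.52-fold, that of *Med24*. The largest decreases were those of *Polr2f* and *Med18*, with log2 fold changes of -0.64 and -0.56, and neither was called.

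*Polr2i* encodes RPB9, a subunit that acts in transcript proofreading, and lies on chromosome 7 from 30231948 to 30233390. In fasted libraries its normalized counts were 295 and 311 in control and 267 and 265 in MED13-LKO-labelled libraries. With sucrose they were 421 and 451 in control and 351 and 336 in MED13-LKO-labelled libraries, and with fructose 468 and 362 and 373 and 389. All 8 fed libraries were above all 4 fasted ones, and *Polr2i* was the only member for which this held (8.8% of all genes did not overlap between fed and fasted). The means were 285 ± 22.2 (SD, n = 4) and 394 ± 47.9 (SD, n = 8), with a log2 fold change of 0.46 (standard error 0.0776, adjusted p = 0.00272 from limma). The rise was called with sucrose in controls (0.52, adjusted p = 0.0329 from limma) and, among the libraries labelled MED13-LKO, with fructose (0.52, adjusted p = 0.0404 from limma), and the other 2 single comparisons gave 0.44 and 0.37. These single calls were less firm than the averaged one. Of 18 refits each, the call with sucrose was lost in 7, among them those without any 1 of the fasted or sucrose controls, and the call with fructose in 13. Its neighbour *Tbcb*, which shares 22.3% of its subsequences, had from 307 to 404 normalized counts when fasted and from 272 to 442 when fed.

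*Med24*, a tail subunit that pairs with MED23 and MED16 and is needed for nuclear receptor signalling, lies on chromosome 11 from 98704591 to 98729435. It had 183 and 167 in control and 239.8 and 189 in MED13-LKO-labelled libraries when fasted. The values were 229.6 and 258 in control and 257 and 241 in MED13-LKO-labelled libraries with sucrose, and 343 and 359 and 422 and 282 with fructose. All 4 fructose libraries were above all fasted ones, while the first sucrose control at 229.6 lay below the highest fasted library. Its log2 fold change came to 0.60 (standard error 0.116, adjusted p = 0.00545 from limma). In controls with fructose alone it was 1.0 (adjusted p = 0.0167 from limma, lost in 4 of 18 refits), the only member called there, and in the libraries labelled MED13-LKO it was 0.69 (adjusted p = 0.0571 from limma). Fructose against sucrose, averaged over genotypes, gave 0.50 (adjusted p = 0.319 from limma), so a difference between the sugars was not past the threshold. *Med23* and *Med16* had log2 fold changes with feeding of 0.17 and -0.11 and were not called.

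**Figure D3:**
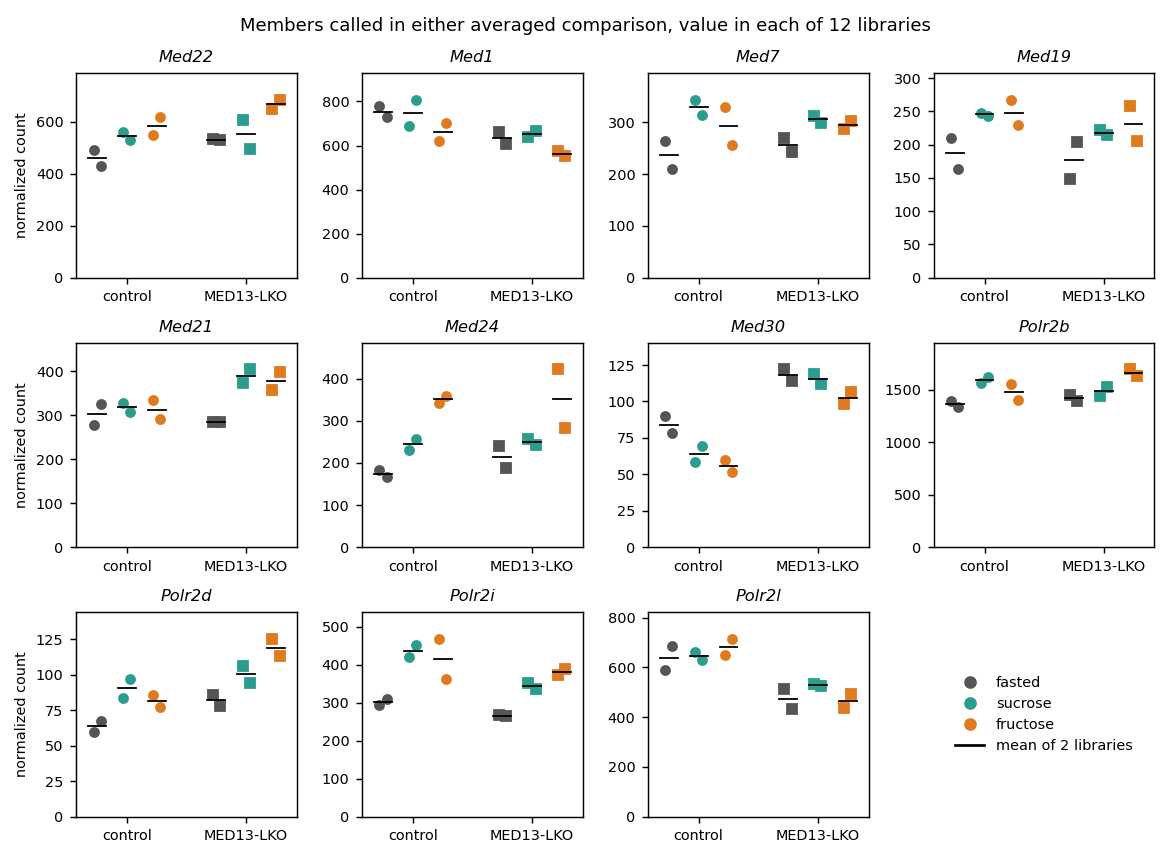
Normalized counts in each of the 12 libraries for the 11 members called in either averaged comparison, with linear axes from 0, circles for control, squares for MED13-LKO as labelled, colours for diet and bars for the mean of 2 libraries. *Med30* and *Polr2l* separate the genotypes, while *Polr2i* separates fed from fasted libraries.

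*Polr2d* was also higher in fed libraries. It rose from 59.7 and 67.4 in control and 85.8 and 78.1 in MED13-LKO-labelled libraries when fasted to 83.4 and 97.2 in control and 106 and 94.4 in MED13-LKO-labelled libraries with sucrose and to 86.1 and 77.5 and 125 and 113 with fructose (log2 fold change 0.42, standard error 0.110, adjusted p = 0.0224 from limma). In each genotype all its fed values were above its fasted values, although the genotypes together overlapped. *Polr2b*, on chromosome 5 from 77310147 to 77349324, had 1395 and 1331 in control and 1450.4 and 1392 in MED13-LKO-labelled libraries when fasted, 1564 and 1617 in control and 1435 and 1530.0 in MED13-LKO-labelled libraries with sucrose and 1554 and 1405 and 1693 and 1633 with fructose. Its log2 fold change of 0.16 (standard error 0.0487, adjusted p = 0.0452 from limma) was the smallest among the 8.

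Among the Mediator genes, *Med7* and *Med21* encode partners in the hinge of the middle and both rose. *Med7*, on chromosome 11 from 46436925 to 46442721, had 264 and 210.3 in control and 269 and 243 in MED13-LKO-labelled libraries when fasted, 343 and 315 in control and 313 and 298 in MED13-LKO-labelled libraries with sucrose and 329 and 257 and 286 and 302 with fructose (log2 fold change 0.31, adjusted p = 0.0407 from limma). *Med21*, on chromosome 6 from 146642547 to 146650732, had 278 and 327 in control and 284 and 285 in MED13-LKO-labelled libraries when fasted, 327 and 309 in control and 375 and 405 in MED13-LKO-labelled libraries with sucrose and 334 and 292 and 357 and 398 with fructose (log2 fold change 0.25, adjusted p = 0.0441 from limma). In the libraries labelled MED13-LKO every fed value of *Med21* was above the fasted ones, while in controls they overlapped. *Med19*, a middle subunit on chromosome 2 from 84678402 to 84688215, had 211 and 163 in control and 149 and 204 in MED13-LKO-labelled libraries when fasted, 247 and 243 in control and 221 and 214 in MED13-LKO-labelled libraries with sucrose and 267 and 229 and 257 and 205 with fructose (log2 fold change 0.38, adjusted p = 0.0426 from limma). *Med22*, on chromosome 2 from 26905262 to 26910677, rose by 0.24 on the log2 scale (adjusted p = 0.0413 from limma) from the values given above, its fasted libraries lying between 429.7 and 532 and its fed ones between 496 and 684. *Med8* (0.23, adjusted p = 0.0688 from limma) and *Med29* (0.23, adjusted p = 0.0764 from limma) came next and did not pass, and *Med30* had -0.31 (adjusted p = 0.0772 from limma).

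Of these 8 calls, those of *Polr2i* and *Med24* held with each of the 12 libraries left out in turn. The call for *Polr2d* held for 8 of 12 and was lost without the first fasted control or the first fasted, second fasted or first sucrose library labelled MED13-LKO, with adjusted p-values up to 0.0864. The other 5 were lost more often than kept, with adjusted p-values up to 0.177. *Med7* kept its call only without the first fasted or second fructose control, *Polr2b* only without the second fructose control, and *Med21* only without the second fasted or second fructose control or the first fructose library labelled MED13-LKO. *Med22* kept it without the first fasted or first fructose control or the second sucrose library labelled MED13-LKO, and *Med19* without the first fasted or second fructose control or the second fasted or second fructose library labelled MED13-LKO. All 8 kept their direction in each of these fits. Without the first fasted library labelled MED13-LKO the count was 2, and without the second fructose control it was 9.

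Summed over the 26 core Mediator members, the normalized counts were between 6316 and 6464 in the 4 fasted libraries and between 6552 and 6846 in the 8 fed ones, without overlap. The means were 6374 ± 64.6 (SD, n = 4) and 6741 ± 113 (SD, n = 8), a difference of 5.75%. Summed per kilobase, the difference was 9.75%, with sums from 3462 to 3550.0 when fasted and from 3686 to 3984 when fed. Of the net difference in the plain sums, *Med24*, *Med22* and *Med8* made up 28.5%, 25% and 19.1%. Other members were lower when fed and offset part of the rise. The largest such shares were -10.2% for *Med1*, -10.0% for *Med14* and -6.96% for *Med4*. Rescaled to equal 75th percentiles, the sums lay between 6198 and 6417 when fasted and between 6667 and 6950 when fed. The 13 polymerase members summed to between 5977 and 6469 when fasted and between 6175 and 6485 when fed, with overlap and a difference of 1.45%, in which *Polr2b* and *Polr2i* were higher and *Polr2a* was lower by 104 normalized counts without being called (log2 fold change -0.16, adjusted p = 0.206 from limma). By genotype, the Mediator sums overlapped, at 6663 ± 223 (SD, n = 6) in controls and 6575 ± 194 (SD, n = 6) in the libraries labelled MED13-LKO, and so did the polymerase sums, at 6315 ± 84.6 (SD, n = 6) and 6275 ± 191 (SD, n = 6). Per kilobase, the polymerase sum of the libraries labelled MED13-LKO differed from that of controls by -4.79%, against -0.62% in the plain sums, with ranges from 3442 to 3755 and from 3726 to 3941 that overlapped. Abundant members weigh most in these sums, and no test was run on them.

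**Figure D4:**
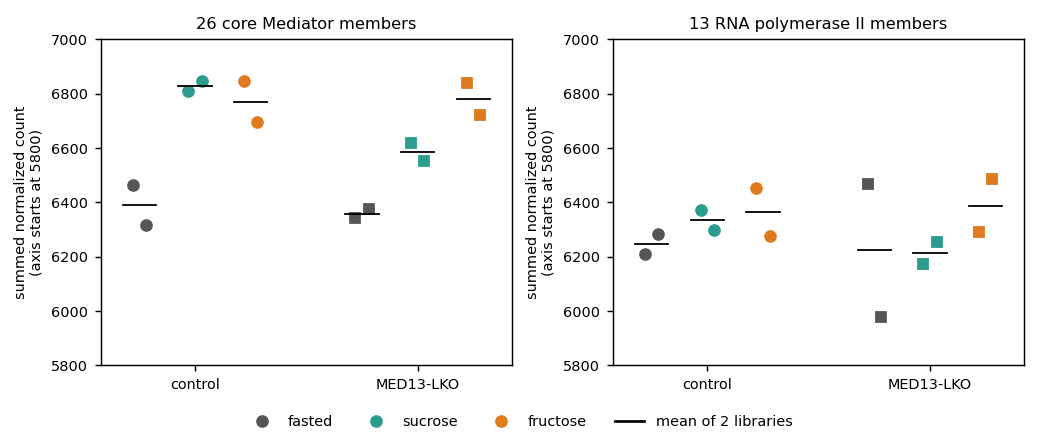
Sum of the normalized counts of the 26 core Mediator members and of the 13 RNA polymerase II members in each of the 12 libraries, with bars for the mean of 2 libraries and y axes that start at 5800. The Mediator sums of all fed libraries, 6552 or more, lie above those of the fasted libraries, 6464 or less, while the polymerase sums overlap.

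Within single comparisons of 1 sugar in 1 genotype, which share their fasted libraries between sugars, few members passed. Sucrose in controls gave 1 member (8.57% of all genes called) and fructose in controls 1 (5.6%), and in the libraries labelled MED13-LKO sucrose gave 0 (5.71%) and fructose 1 (6.53%). With sucrose in the libraries labelled MED13-LKO, 3 members had an unadjusted p under 0.05, against 20.8% of all genes. In that comparison 39.1% of the genes called were higher, and 50.7% with libraries rescaled to equal 75th percentiles. Fructose against sucrose gave 0 of 39 members, with 2 at an unadjusted p under 0.05, where 0.0404% of all genes were called and 9.48% had such a p. The 2 were *Med24*, given above, and *Med1* (log2 fold change -0.19, adjusted p = 0.478 from limma).

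Whether the response to feeding differed between genotypes was tested as an interaction with the sugars pooled. No member was called by limma, where 0.0404% of all genes were, and 2 members had an unadjusted p under 0.05 against 9.49% of all genes. These were *Med21*, whose fed-to-fasted log2 fold change was higher by 0.36 in the libraries labelled MED13-LKO (95% interval 0.02 to 0.70, adjusted p = 0.487 from limma), and *Med28* of the tail, higher by 0.43 (95% interval 0.00 to 0.85, adjusted p = 0.525 from limma). The standard error of this contrast had a median of 0.19 over the members, against 0.092 for the genotype difference.

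Related genes of the transcription machinery gave the following counts. Of the 7 kinase module genes, *Med12l* was called with genotype and rose (log2 fold change 2.48, from at most 24.9 normalized counts in controls to at least 32.8), and *Cdk8* and *Med13l* fell with feeding by 0.42 and 0.45 on the log2 scale. Of 31 genes of general transcription factors, which bring the polymerase to the start site, 6 were called with genotype, where 25.3% of all genes were. *Taf6* was higher, and *Gtf2h1*, *Gtf2e1*, *Ercc3*, *Gtf2b* and *Taf13* were lower by log2 fold changes of -0.38 to -0.22, with a median over the list of -0.12. With feeding, where 21.8% of all genes were called, 5 were, *Gtf2f1* and *Gtf2e1* higher and *Gtf2h1*, *Taf8* and *Gtf2a2* lower, and the median was 0.04. Of 25 pausing and elongation factors 7 were called with genotype, *Nelfa*, *Aff1* and *Leo1* higher and *Supt4a*, *Nelfe*, *Tcea1* and *Ell* lower. With feeding 4 were called, and the largest change was that of *Ell2*, an elongation factor, at -0.91 (adjusted p = 5.89e-05 from limma), followed by *Leo1* of the *Paf1* complex at 0.50 (adjusted p = 0.00270 from limma), with *Supt4a* and *Aff4* lower. Of 16 subunits particular to RNA polymerases I and III 3 were called with genotype, *Polr3f* higher and *Crcp* and *Polr3g* lower, and 4 with feeding, *Polr1b* and *Polr1e* higher and *Crcp* and *Polr1d* lower. The medians over the elongation list and over the polymerase I and III list were -0.02 and -0.00015 with genotype, and 0.02 and -0.005 with feeding. Several of the genes called with genotype share 31-base subsequences with other annotated genes. The share was 16.7% for *Med12l*, 30.0% for *Tcea1*, 26.8% for *Taf6* and 24.5% for *Supt4a*. How far this alters their values was not measured. Some of the list counts rested on single libraries. Over 17 refits, the genotype count ran from 3 to 7 for the elongation list, where it moved by over 1.5 times for 10 of the 12 libraries left out, and from 1 to 3 for the kinase module. The feeding count ran from 1 to 7 for the general factors, 2 to 6 for the elongation list and 2 to 5 for polymerases I and III, and was lowest in each without the second fasted control.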

How the data were processed

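Liver RNA was sequenced from 12 libraries, 2 in each of 6 groups taken from the sample titles. The authors trimmed paired reads of 150 bases with Trim Galore 0.6.5, estimated transcript counts with kallisto 0.46.0 and used DESeq2 1.24.0, with mm10 named in the submitters' processing notes. They deposited signal values, the normalized counts of 16346 genes. Whole reads were recovered for 44% to 58.0% of low values per library within a tolerance of 0.05, so tests that need counts were not run, and the differential test the study names was replaced by limma. Because kallisto splits reads among similar transcripts, members with shared sequence can carry extra error. Depth limits members with few counts. It was not measured but estimated from the steps between low values, over the 16346 genes, at 16020000 reads or more per library.

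From these values log2(normalized count + 1) was fitted in limma 3.58.1 (R 4.3.3, trended empirical Bayes, 9.98 degrees of freedom) for 12366 genes that reached a mean of 10, with 1 coefficient per group over all 12 libraries. A fold change is on this scale and understates the change of low genes. Benjamini-Hochberg adjustment ran over all genes tested, and a member is called at an adjusted p under 0.05. The fit was tested on simulated data. Levels per kilobase used the longest APPRIS principal transcript of GENCODE M21 on GRCm38, in which 16212 identifiers were named, and promoter windows came from RefSeq. Hepatocyte marker *Tf* and cholangiocyte marker *Epcam* were not matched.

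The members and lists were chosen with earlier results of these data known. Values are given in every library for members called in an averaged comparison and for the highest and lowest level per kilobase in each subunit group. The related lists (kinase module, general transcription factors, pausing and elongation factors, RNA polymerases I and III) are given by counts with their called genes. Alternatives were pseudocounts of 0.1 and 10, no filter, equal 75th percentiles, a block for the replicate number, only the groups compared, and each library left out. Figures used Python 3.11.15 and matplotlib 3.10.9. The study's chromatin, protein and qRT-PCR experiments were not used here.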

Additional observations from a re-analysis of the deposited data

Results flagged for a closer look

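In 7 members both libraries of a group moved one way in one setting and the opposite way in another. The share of all genes with such a pattern was not counted, so this number is no result about the members. These differences between effects were not tested one by one, and no member passed the test of the pooled interaction. With 2 libraries against 2, such patterns can arise by the spread between libraries, and no explanation was weighed.

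For the genotype difference by diet, *Med17* of the head had log2 differences of 0.15 when fasted and -0.21 with fructose. *Med26* had -0.24 when fasted, 0.28 with sucrose and -0.46 with fructose. *Med14*, the scaffold, had 0.018 when fasted and -0.24 with sucrose. *Med27* of the tail had -0.23 with sucrose and 0.21 with fructose, and *Polr2b* had -0.10 with sucrose and 0.17 with fructose.

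For fructose against sucrose, the log2 differences in controls and in the libraries labelled MED13-LKO were 0.53 and -0.21 for *Med26*, -0.23 and 0.20 for *Med27*, and -0.11 and 0.17 for *Polr2b*. For sucrose against fasted, they were 0.27 and -0.14 for *Med23* and -0.40 and 0.17 for *Polr2k*, which shares 27.3% of its subsequences with other genes.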

How the results depend on the processing

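Of 204 refits of the 12 fold changes called in the averaged comparisons, 129 kept their call, 75 lost it and 0 changed direction. For the genotype averaged over diets, the 4 members stayed called with either pseudocount, with equal 75th percentiles and with the replicate block, 3 were called with no filter, and between 2 and 5 with 1 library left out. It was 2 without the first fasted control or without the second fasted, first sucrose or second fructose library labelled MED13-LKO. For fed against fasted, 8 became 3 with no filter on low values, which tests more genes, 4 with the replicate block and 9 with equal 75th percentiles, and between 2 and 9 with 1 library left out. Without a filter the 3 were *Med24*, *Polr2d* and *Polr2i*. It was between 2 and 5 with any library left out other than the second fructose control. For single diets, fitting only the groups compared gave 0 for every comparison. These fits hold 4 libraries, with fewer degrees of freedom and variances estimated anew, and the part of each was not tested. With equal 75th percentiles, 1 member (*Polr2l*) was called for genotype when fasted, 1 (*Med21*) for sucrose and 2 (*Med24* and *Polr2i*) for fructose in the libraries labelled MED13-LKO. Fructose in the libraries labelled MED13-LKO gave 0 with no filter and 0 with the replicate block. With 1 library left out, the counts ran from 0 to 1 for genotype when fasted, from 0 to 1 with sucrose, from 0 to 2 with fructose, from 0 to 1 for sucrose and 0 to 2 for fructose in controls, and from 0 to 0 and 0 to 1 for sucrose and fructose in the libraries labelled MED13-LKO. In these fits the lone library of a group is assumed to vary like the others. Fructose against sucrose and the interaction stayed at 0 under every alternative. The cause of these shifts was not tested. Equal 75th percentiles moved the median of all genes by under 0.05 on the log2 scale. No label states that equal replicate numbers mark a shared litter, cage or day, so the block is given here only as an alternative. Deviations of same-numbered libraries from their group means correlated between -0.14 and 0.08 over 15 pairs of groups. Such correlations see only an effect spread over all genes, so they cannot show whether the libraries were paired. Counts of the related lists moved by over 1.5 times in 20 of 136 refits, of which 10 were the elongation list with genotype and 4 the general factors with feeding.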
